A study of Drosophila melanogaster with 12 samples.

Results

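The stretches nearest the centromere on the chromosome arms 2L, 3L, X and 3R of Drosophila melanogaster were examined in maps of predicted nucleosomes from embryonic neural progenitors and glia. A nucleosome was taken as a member when its start in the dm3 build lay at 22000001 or above on 2L, at 22900001 or above on 3L, at 22030001 or above on X, or at 380000 or below on 3R. This rule used position alone. It took 22960 of the 1032783 nucleosomes in both maps together (2.22%). The 2L end held 3376 GNP and 3409 glia nucleosomes over 1011 kb, and the 3L end held 5032 and 4972 over 1642 kb. The X end held 1522 and 1518 over 392 kb, and the 3R end held 1589 and 1542 over 379999 bp. The rest of the same 4 arms, 413284 GNP and 404182 glia nucleosomes, served as the background. Each end was set beside the rest of its own arm, and shares over the rest of the 4 arms together are named as such.

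Nuclei were isolated from whole embryos with INTACT, which captures nuclei that carry a tagged envelope protein, and their DNA was digested with micrococcal nuclease (MNase), which cuts between nucleosomes and spares the DNA wrapped around histones. GNP nuclei (Gcm-expressed neural progenitors, called early glial cells in the labels) came from embryos that carried gcm-Gal4 and UAS-mCDGFP over cyo together with UAS-3xFLAG-blrp-mCherry-RanGap, aged 5 to 7 h after egg laying. Glia nuclei, called late glial cells, came from embryos with repo-Gal4 and UAS-3xFLAG-blrp-mCherry-RanGap over Tm3B at an age of 12 to 14 h. Each map is 1 library, so cell type, age, driver line and library cannot be told apart, and no difference below has a replicate check. Both lines express the RanGap fusion, in the cells where gcm-Gal4 or repo-Gal4 is active, and the positions alone carry no marker by which the cell type could be checked.

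DNA next to the centromeres is packed into pericentromeric heterochromatin. It is rich in transposons and other repeats, holds few genes, many of them with long introns, and carries methylated lysine 9 of histone H3, which HP1 binds. Only reads that mapped to a single place were used to predict nucleosomes, so repeated sequence of this kind can be left without calls. A stretch of more than 500 bp between neighbouring nucleosomes is called an uncalled stretch below. It can be sequence to which no read mapped uniquely or sequence without a called nucleosome, and these cannot be told apart in lists of positions. Intervals in brackets are 95% intervals of counting error only. They treat nucleosomes as independent, which neighbours are not, and the sequencing depth is unknown.

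The ends of 2L and 3L held fewer nucleosomes per Mb than the rest of their arms, and X and 3R differed less. On 2L the end had 3338 GNP nucleosomes per Mb against 4353 in the rest, a ratio of 0.767 [0.741 to 0.794], and 3371 glia nucleosomes per Mb against 4263, a ratio of 0.791 [0.764 to 0.818]. On 3L the values were 3064 against 4401 in GNP (0.696 [0.677 to 0.716]) and 3028 against 4298 in glia (0.705 [0.685 to 0.725]). The 3L end was thus the sparsest in both maps. X had 3879 against 4272 per Mb in GNP (0.908 [0.863 to 0.955]) and 3869 against 4188 in glia (0.924 [0.878 to 0.972]). The 3R end had 4182 against 4460 (0.938 [0.892 to 0.985]) and 4058 against 4354 (0.932 [0.886 to 0.980]). All 8 ratios were below 1 with intervals that left out 1.

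Most of the shortfall lay in uncalled stretches. They took 23.3% of the 2L end in GNP and 22.8% in glia, against 5.11% and 5.08% of the rest of the arm. The 3L end had 30.2% in each map, against 4.08% and 4.11%. X followed with 13.4% and 13.1%, against 6.55% and 6.50%, and 3R with 9.33% and 9.50%, against 3.41% and 3.36%. Once these stretches were left out, the density of the 2L end came to 0.949 [0.917 to 0.982] of the rest in GNP and 0.973 [0.940 to 1.01] in glia, and that of the 3L end to 0.957 [0.931 to 0.985] and 0.969 [0.941 to 0.997]. On X (0.980 and 0.994) and 3R (0.999 and 0.995) the intervals included 1. Leaving out uncalled stretches raises a density by construction, more so where they are many, and what remained was a ratio of 0.949 to 0.999 at every end.

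The stretches at the 2L and 3L ends were many and short, those of 3R few and long. 2L had 114 in GNP and 116 in glia with medians of 1152 and 1071 bp, and 3L had 257 and 233 with medians of 1128 and 1263 bp, against medians of 2630 and 2537 bp on the rest of 2L and of 2762 and 2279 bp on the rest of 3L. X had 18 and 22, and 3R had 8 and 9 with medians of 4923 and 4249 bp. Nearly all of this sequence was uncalled in both maps, from 91.3% of the GNP stretches on 2L to 98.5% on 3R. The longest stretch shared by both maps measured 15.0 kb on 2L (22494903 to 22509938), 12.0 kb on 3L (23122959 to 23134992), 7.23 kb on X (22083450 to 22090682) and 8.27 kb on 3R (192514 to 200787).

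Windows of 100 kb counted from each boundary showed where the change set in. On 2L the first and the second window past the boundary held 440 and 437 GNP nucleosomes, close to the median of 448 in the rest of the arm, and 434 and 431 glia nucleosomes beside a median of 440. Farther in, the number fell to 178 in GNP and 188 in glia between 700 and 800 kb from the boundary, where 59.3% of the window was uncalled in GNP. On 3L the first window held 429 and 419, and the window 1500 to 1600 kb from the boundary held 162 and 166. Of the 16 full windows of the 3L end, 14 lay below the 5th percentile of the rest of the arm in both maps. The 3 full windows of X held 399 to 417 GNP nucleosomes and those of 3R 399 to 454. The boundary did not separate dense from sparse sequence on every arm. On X the lowest windows lay outside the end, with 113, 197 and 141 GNP nucleosomes between 500 and 200 kb before the boundary, and the window 600 to 500 kb before the 2L boundary held 52.

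**Figure D1:**
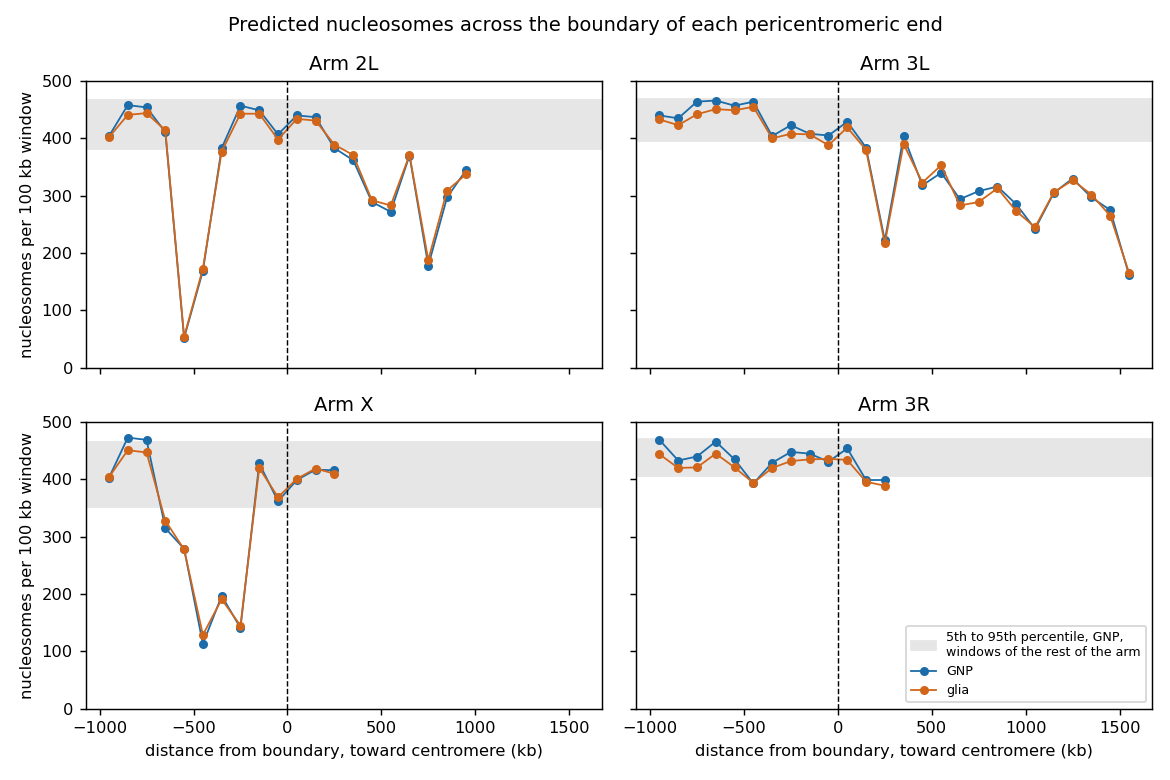
Predicted nucleosomes (y axis, number per 100 kb window) against the distance of the window's middle from the boundary (x axis, kb, positive toward the centromere), for GNP and glia on each arm, with a grey band from the 5th to the 95th percentile of GNP windows in the rest of the arm. The maps run together on all 4 arms, and the low windows fill the inner part of 2L and 3L but lie before the boundary on X.

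The number of nucleosomes changed little between GNP and glia at the ends. The log2 ratio of glia to GNP, taken as end minus rest, was 0.04 [-0.03 to 0.11] on 2L, 0.02 [-0.04 to 0.07] on 3L, 0.03 [-0.08 to 0.13] on X and -0.01 [-0.11 to 0.09] on 3R, so no end stood apart from its arm by more than counting error. Windows of 10 kb with at least 20 nucleosomes in both maps together numbered 91 on 2L, 149 on 3L, 40 on X and 38 on 3R. With a pseudocount of 1 added to each number, 0 windows at each end passed a 1.5-fold difference. Over the rest of the 4 arms 0.0536% of windows did, so small a share that 0 at the ends says little. GNP outnumbered glia in 34.1% of the 2L windows, against 55.9% in the rest of 2L (difference -21.8 percentage points [-31.0 to -11.4]). On 3L the shares were 46.3% and 56.9% (-10.6 [-18.6 to -2.30]). Windows with equal numbers counted in the total. At the 2L end GNP led in 31 windows and glia in 43, and 17 were equal. At the 3L end GNP led in 69 and glia in 48, and 32 were equal. The slight surplus of GNP nucleosomes along the arms was thus missing from most 2L windows, while the intervals of X and 3R included 0.

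The window with the highest log2 ratio at the 2L end (22800001 to 22810000) held 18 GNP and 27 glia nucleosomes, a log2 ratio of 0.56 with a pseudocount of 1. Of the 27 glia nucleosomes, 9 had no GNP counterpart and 8 had one within 10 bp. The Poisson intervals of its counts overlapped [10.7 to 28.4 and 17.8 to 39.3]. The lowest ratio at any end came from a 3L window (23890001 to 23900000) with 12 GNP and 8 glia nucleosomes (-0.53). The lowest window of 2L (22370001 to 22380000) held 35 and 30 (-0.22), and the highest of 3L (24270001 to 24280000) held 19 and 22 (0.20). On X the highest window (22370001 to 22380000) held 17 and 20 (0.22) and the lowest (22420001 to 22430000) held 12 and 10 (-0.24). On 3R the highest (190001 to 200000) held 11 and 12 (0.12) and the lowest (360001 to 370000) held 46 and 40 (-0.20). The intervals of the counts overlapped in all 8 windows.

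Spacing was read from the distance between the dyads (midpoints) of neighbouring nucleosomes. GNP nucleosomes at the 2L and 3L ends were spaced more widely and less evenly than along their arms. The median distance in GNP was 215 bp at the 2L end and 215 bp at the 3L end, against 201 and 200 bp in the rest. In glia it was 216 and 221 bp, against 209 and 210 bp. X had 207 bp in GNP and 212 bp in glia, against 202 and 210 bp, and 3R had 200 and 211 bp, against 199 and 209 bp. With distances over 500 bp left out, the GNP medians of the 2L and 3L ends were 210 bp each, against 200 bp. Those of glia were 213 and 216 bp, against 209 bp. Along the arms the median distance was larger in glia than in GNP by 8 bp on 2L, 10 bp on 3L, 8 bp on X and 10 bp on 3R. At the ends this widening was 1 bp [-2.61 to 6.66] on 2L, 6 bp [1.76 to 8.83] on 3L, 5 bp [0.76 to 10.0] on X and 11 bp [5.17 to 16.7] on 3R. The 2L value moved with uncalled sequence. With distances over 500 bp left out it was 3 bp. More than 1 kb from uncalled stretches the 2L medians were 208 bp in GNP and 213 bp in glia, and more than 5 kb away 205 and 213 bp, beside 200 and 209 bp in the rest of the arm at both distances.

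The share of distances from 160 to 200 bp, the range of regular arrays, showed the same order. In GNP it was 33.7% at the 2L end against 40.7% in the rest (-7.01 points [-8.62 to -5.37]) and 32.5% at the 3L end against 40.9% (-8.36 [-9.68 to -7.02]). X had 36.4% against 39.4% (-3.02 [-5.42 to -0.55]), and 3R had 41.8% in each (0.06 [-2.36 to 2.52]). In glia the shares were 31.9% on 2L against 35.2% (-3.36 [-4.94 to -1.75]), 30.2% on 3L against 35.0% (-4.75 [-6.05 to -3.43]), 33.6% on X against 34.5% and 33.4% on 3R against 35.7%, with the X and 3R differences within counting error. The GNP map thus fell further below its arm at the 2L and 3L ends than the glia map did. The fall from GNP to glia was smaller at these ends than along the arm, by 3.65 points on 2L [1.37 to 5.92] and 3.61 on 3L [1.74 to 5.48], while on X (2.12 [-1.30 to 5.54]) and 3R (-2.35 [-5.75 to 1.05]) the interval included 0. With distances over 500 bp left out, the GNP shares were 35.3% on 2L against 40.8% and 34.7% on 3L against 41.0%. Those of glia were 33.4% against 35.3% and 32.1% against 35.1%.

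These spacing values moved with the distance from uncalled stretches. Within 1 kb of such a stretch lay 18.1% of the GNP nucleosomes of the 2L end, 26.2% on 3L, 9.46% on X and 5.92% on 3R, against 2.15%, 2.04%, 3.25% and 1.76% in the rest. Among nucleosomes more than 1 kb away, the GNP difference in the share of regular distances shrank to -4.23 points [-6.05 to -2.38] on 2L and -5.68 [-7.26 to -4.08] on 3L. More than 5 kb away it was -2.17 [-4.50 to 0.20] and -1.97 [-4.41 to 0.53], no longer beyond counting error. X moved the other way, to -3.74 [-6.74 to -0.63] in GNP at that distance, and 3R in glia to -3.05 [-5.72 to -0.27]. More than 5 kb away the shares of GNP and glia were 38.7% and 34.1% at the 2L end, against 40.8% and 35.4% in the rest. On 3L they were 39.1% and 34.5%, against 41.0% and 35.0%. The smaller fall from GNP to glia at the 2L and 3L ends was thus less marked at that distance.

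**Figure D2:**
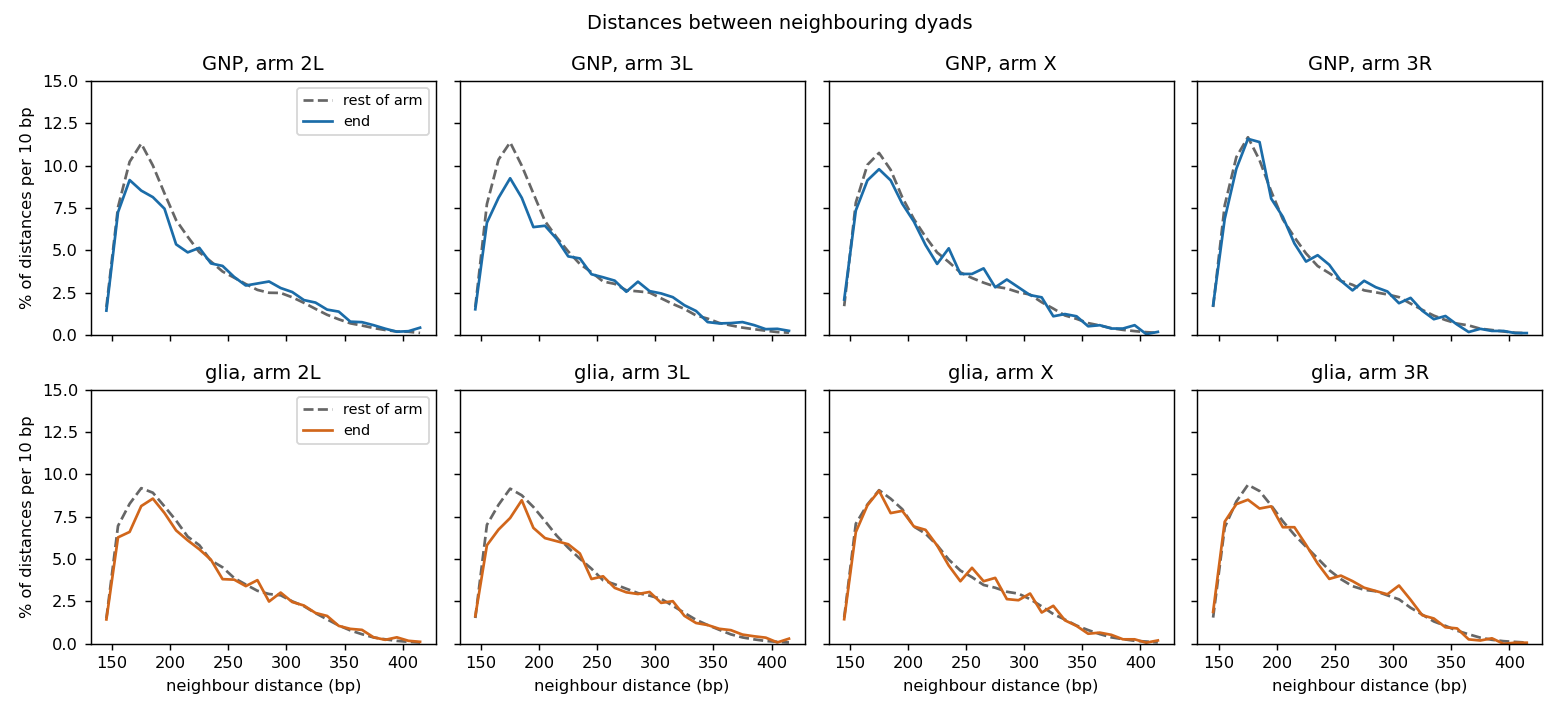
Percent of neighbour distances (y axis) in bins of 10 bp (x axis, bp) for GNP (top) and glia (bottom), with the end as a solid and the rest of the arm as a dashed line. The peak between 160 and 200 bp is lower at the 2L and 3L ends than along the arm, more so in GNP, and the lines of X and 3R lie close together.

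Arrays, read here as runs of at least 5 nucleosomes with all neighbour distances from 160 to 200 bp, were fewer at the same ends. An uncalled stretch ends a run, so many such stretches lower the number of arrays by construction. No count away from uncalled stretches is given here. In GNP they numbered 11.3 per 1000 nucleosomes on 2L [7.97 to 15.4] against 17.6 in the rest, and 7.75 on 3L [5.51 to 10.6] against 17.8. X had 19.1 against 16.1 and 3R had 18.9 against 19.7. In glia all 4 ends were below their arms in number, with 6.45 against 10.3 on 2L, 6.03 against 10.4 on 3L, 5.93 against 10.0 on X and 6.49 against 10.8 on 3R, and the intervals of X [2.71 to 11.3] and 3R [3.11 to 11.9] took in the value of the arm. Counts of all dyad pairs by distance also put the GNP values of 2L and 3L below their arms, while X and 3R differed from theirs within counting error. Pairs at the first peak outnumbered those at the following trough by 3.17 [2.71 to 3.72] on 2L against 4.36 in the rest. On 3L the value was 3.25 [2.85 to 3.71] against 4.30, on X 3.30 [2.62 to 4.17] against 3.93 and on 3R 4.87 [3.83 to 6.21] against 4.52. In glia it was 3.15 on 2L [2.68 to 3.71] against 3.12 and 2.85 on 3L [2.49 to 3.25] against 3.06. X had 3.26 [2.56 to 4.16] against 2.93 and 3R had 2.84 [2.26 to 3.57] against 3.08. By this measure no glia end differed from its arm beyond counting error.

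The longest GNP array of the 2L end spanned 10 nucleosomes (22121893 to 22123616) at a mean distance of 175 bp, and 5 of the 8 glia nucleosomes there lay within 10 bp of one of them. That of 3L also had 10 (22968224 to 22970022), with 1 of 8 glia nucleosomes within 10 bp. X reached 9 (22415770 to 22417340), and 3R reached 7 (116463 to 117680), a length shared by 6 arrays. An array in one map was thus not always kept in place in the other. In glia the longest had 8 nucleosomes on 2L (22451899 to 22453267), 8 on 3L (23953081 to 23954505, 1 of 2 of that length), 6 on X (22161232 to 22162233, likewise 1 of 2) and 8 on 3R (339690 to 341054).

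Gaps were counted where 150 to 354 bp lay uncovered between neighbours. They made up 15.3% of GNP distances at the 2L end and 15.0% at the 3L end, against 11.8% in the rest of each arm, a surplus of 3.50 points [2.31 to 4.77] and 3.16 [2.18 to 4.19]. In glia the shares were 14.3% and 14.8%, against 12.7% and 12.9% (1.55 [0.40 to 2.78] and 1.83 [0.85 to 2.87]). X (12.7% and 13.4%) and 3R (10.6% and 13.0%) differed from their arms within counting error. The other map filled these gaps less often at the 2L and 3L ends. A glia dyad lay in 62.7% of the GNP gaps on 2L, lower than along the arm by -6.01 points [-10.4 to -1.86], and in 60.8% on 3L (-7.41 [-11.0 to -3.89]). A GNP dyad lay in 57.2% of the glia gaps on 2L (-12.8 [-17.3 to -8.38]) and in 61.4% on 3L (-7.89 [-11.5 to -4.34]). More than 1 kb from uncalled stretches the surplus of gaps was 3.16 points [1.85 to 4.57] in GNP on 2L, 2.93 [1.79 to 4.14] in GNP on 3L and 1.86 [0.71 to 3.08] in glia on 3L, whereas in glia on 2L it was 1.09 [-0.17 to 2.45]. Of the 4 differences in filling, only that of the glia gaps of 2L was beyond counting error at this distance (-9.84 [-14.9 to -4.95]).

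Each nucleosome was then compared with the nearest one of the other map. At the 2L and 3L ends nucleosomes more often held their place between GNP and glia. The dyads coincided for 87 of 3376 GNP nucleosomes on 2L (2.58% [2.09 to 3.17]) and for 131 on 3L (2.60%), against 1.74% and 1.71% along the arms and 1.69% over the rest of the 4 arms. More than 5 kb from uncalled stretches this surplus was within counting error (0.39 points [-0.20 to 1.20] on 2L and 0.33 [-0.27 to 1.16] on 3L). X had 19 of 1522 and 3R had 31 of 1589, both within counting error of their arms. A glia dyad within 10 bp was found for 34.3% of GNP nucleosomes on 2L and 34.1% on 3L, against 28.5% and 28.7% along the arms and 28.4% over the rest of the 4 arms. The surplus was 5.73 points [4.13 to 7.38] on 2L and 5.43 [4.10 to 6.78] on 3L. On X the share was 26.3% (-1.35 with an interval that included 0) and on 3R 30.1% (1.39, likewise).

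The surplus of positions within 10 bp was largest beside uncalled stretches but was also present away from them. Within 1 kb of a stretch 41.4% of GNP nucleosomes on 2L and 37.8% on 3L had a glia dyad within 10 bp, against 29.2% and 28.0% in the rest of the arm at the same distance. More than 1 kb away the shares were 32.7% and 32.8%, still above their arms by 4.17 points [2.43 to 5.97] and 4.13 [2.61 to 5.68]. More than 5 kb away they were 31.9% and 32.6% (3.41 [1.21 to 5.68] and 3.83 [1.53 to 6.22]). The X end lay below its arm at that distance, with 24.1% (-3.31 [-5.92 to -0.50]).

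The surplus did not rest on a single window. Leaving out each 100 kb window in turn gave 5.14 to 7.02 points on 2L and 5.11 to 6.16 on 3L. The share within 10 bp was 28.6% and 25.6% in the first and the second window past the 2L boundary, which also had an ordinary density, and 43.8% between 700 and 800 kb. Of the 10 full windows of 2L, 6 lay above the 95th percentile of the rest of the arm, and of the 16 of 3L, 11 did. Sparse windows outside the ends also showed high shares in places, with 48.7%, 45.2% and 57.4% in the windows between 500 and 200 kb before the X boundary. The windows were also grouped by uncalled sequence in GNP, a grouping chosen after these values were seen. With less than 10% uncalled, the median share was 27.9% in 7 windows of the ends and 28.4% in 823 of the rest. From 10 to 20% it was 32.0% in 8 windows of the ends and 28.4% in 88 of the rest. With at least 20% it was 35.8% in 17 windows of the ends and 30.0% in 30 windows of the rest. The surplus was thus absent from the windows with the least uncalled sequence. These groups pool the arms unequally. With at least 20% uncalled, 4 of the 17 lay on 2L and 13 on 3L, but 15 of the 30 on X. Of the 7 with less than 10%, 2 each lay on 2L, 3L and X and 1 on 3R. The part of uncalled sequence in the agreement of the maps was not tested further.

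**Figure D3:**
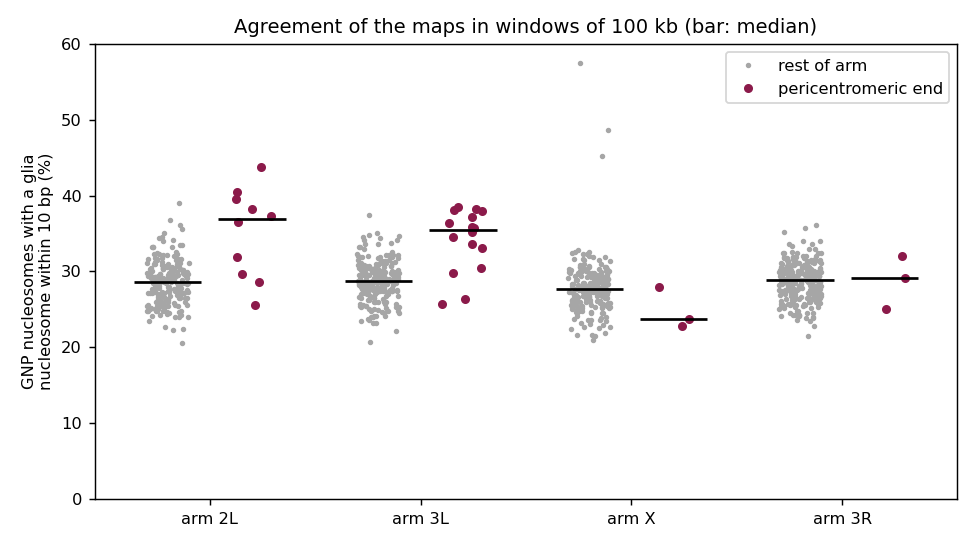
Percent of GNP nucleosomes with a glia nucleosome within 10 bp (y axis) in full 100 kb windows with at least 100 nucleosomes in each map, one point per window, for the end and the rest of each arm (x axis), with the median as a bar. Most windows of the 2L and 3L ends sit above the median of their arm, of the 3 windows of X 2 sit below the median of the arm and 1 close to it, and 3 windows of the rest of X lie higher than all end windows.

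Runs of at least 5 consecutive nucleosomes, each with a partner within 10 bp in the other map, numbered 19 on 2L (5.63 per 1000 GNP nucleosomes [3.39 to 8.79], against 2.84 in the rest) and 35 on 3L (6.96 [4.84 to 9.67] against 3.01). X had 1 (0.657 [0.0166 to 3.66] against 2.55) and 3R had 6 (3.78 [1.39 to 8.22] against 2.89). The longest run of 2L had 10 nucleosomes (22396112 to 22398301), a length reached by 2 runs, with glia dyads between -7 and 4 bp from the GNP dyads. The 3R end also had a run of 10 (362581 to 364434), from -8 to 6 bp. On 3L the longest had 8 nucleosomes (24048661 to 24050802), of which 3 lay at the same position, and glia had an extra nucleosome inside the run. On X it had 6 (22286362 to 22287697). The mean GNP distance in these runs was 227 bp on 2L, 285 bp on 3L, 238 bp on X and 190 bp on 3R.

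**Figure D4:**
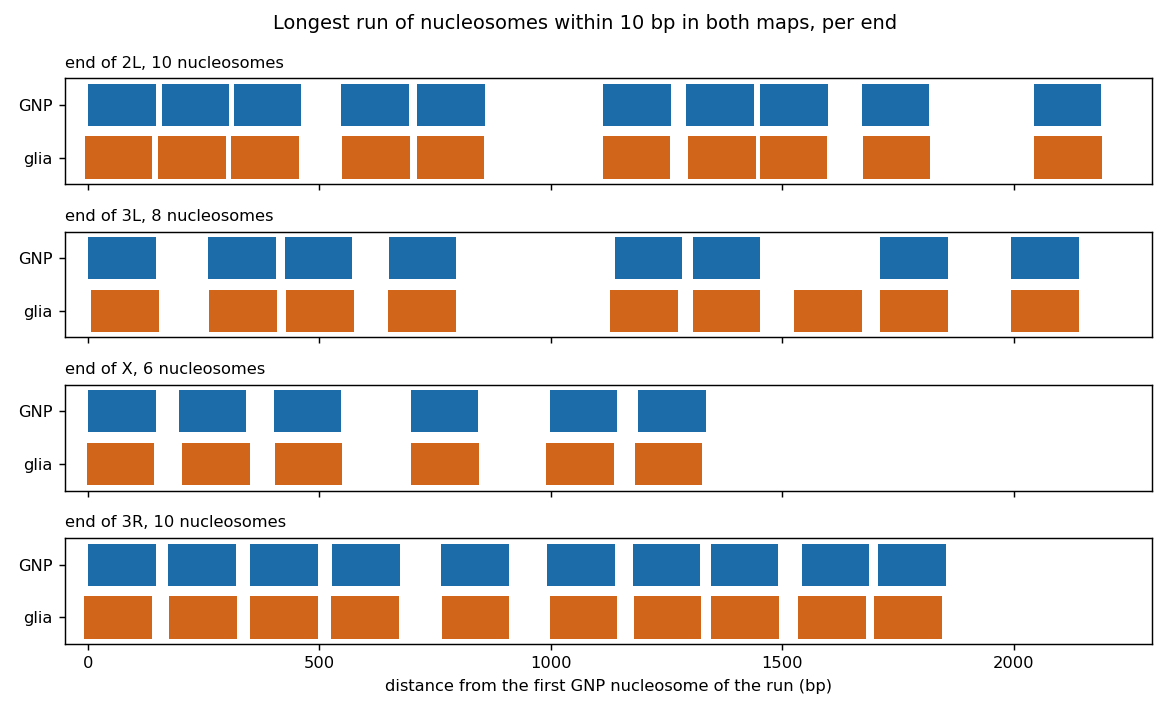
Predicted nucleosomes of GNP (blue) and glia (orange) as bars drawn to scale along the longest run of each end (x axis, bp from the first GNP nucleosome of the run). The bars of both maps line up within 10 bp, and the 3L run has a glia bar with no GNP partner.

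Nucleosomes without a counterpart were counted with the overlap of 20 bp or less used in the study's methods, a GNP nucleosome being lost and a glia nucleosome gained. Counted over the whole of each end, gains were more frequent on 2L and 3L than along their arms. On 2L 157 GNP nucleosomes were lost (4.65%, against 4.43% in the rest) and 204 glia nucleosomes gained (5.98% against 4.02%, a surplus of 1.96 points [1.20 to 2.82]). On 3L 267 were lost (5.31% against 4.50%, 0.81 [0.21 to 1.47]) and 260 gained (5.23% against 3.90%, 1.33 [0.73 to 1.99]). Over the rest of the 4 arms the shares were 4.46% lost and 3.97% gained. X had 69 lost and 69 gained (4.53% and 4.55%), and 3R had 62 and 64 (3.90% and 4.15%), all within counting error of their arms.

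Along the arms losses exceeded gains, by 0.41 points on 2L, 0.60 on 3L, 0.47 on X and 0.49 on 3R. At the 2L end gains exceeded losses (lost minus gained -1.33 [-2.41 to -0.27]), and the other ends did not differ from 0 beyond counting error (0.08 on 3L, -0.01 on X and -0.25 on 3R). Gains outnumbered losses, in percent, in 9 of 10 full 100 kb windows of the 2L end and in 11 of 16 of the 3L end, against 37.6% and 32.9% of windows in the rest. The 2L value stayed below 0 without its window of the highest log2 ratio (-1.12 [-2.19 to -0.06]). Within 1 kb of an uncalled stretch of either map the value of the 2L end was -4.07 [-7.42 to -0.72]. In the rest of 2L and 3L it was there -0.84 [-2.35 to 0.66] and 1.26 [-0.24 to 2.77]. In the rest of X and 3R it was -1.42 [-2.74 to -0.10] and -1.95 [-3.41 to -0.49]. A nucleosome inside a stretch of the other map is mostly unmatched and mostly near a stretch, so the split is partly built in. More than 1 kb from stretches the value of the 2L end was -0.68 [-1.75 to 0.39]. At that distance the gained shares were 4.58% on 2L against 3.96% in the rest (0.62 points [-0.11 to 1.47]) and 4.29% on 3L against 3.86% (0.43 [-0.19 to 1.14]), both within counting error. The lost shares there were 3.91% on 2L against 4.40% and 3.88% on 3L against 4.45% (-0.57 [-1.16 to 0.11]). Outside the uncalled stretches of the other map the 3L losses were 3.78% at the end against 4.43% (-0.65 [-1.17 to -0.06]). That filter leaves out GNP nucleosomes inside stretches without glia calls, which have no close partner. It lowered the lost nucleosomes from 267 to 185 at the 3L end and from 4529 to 4459 in the rest. This drop follows from the filter, so no direction is read from it.

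**Figure D5:**
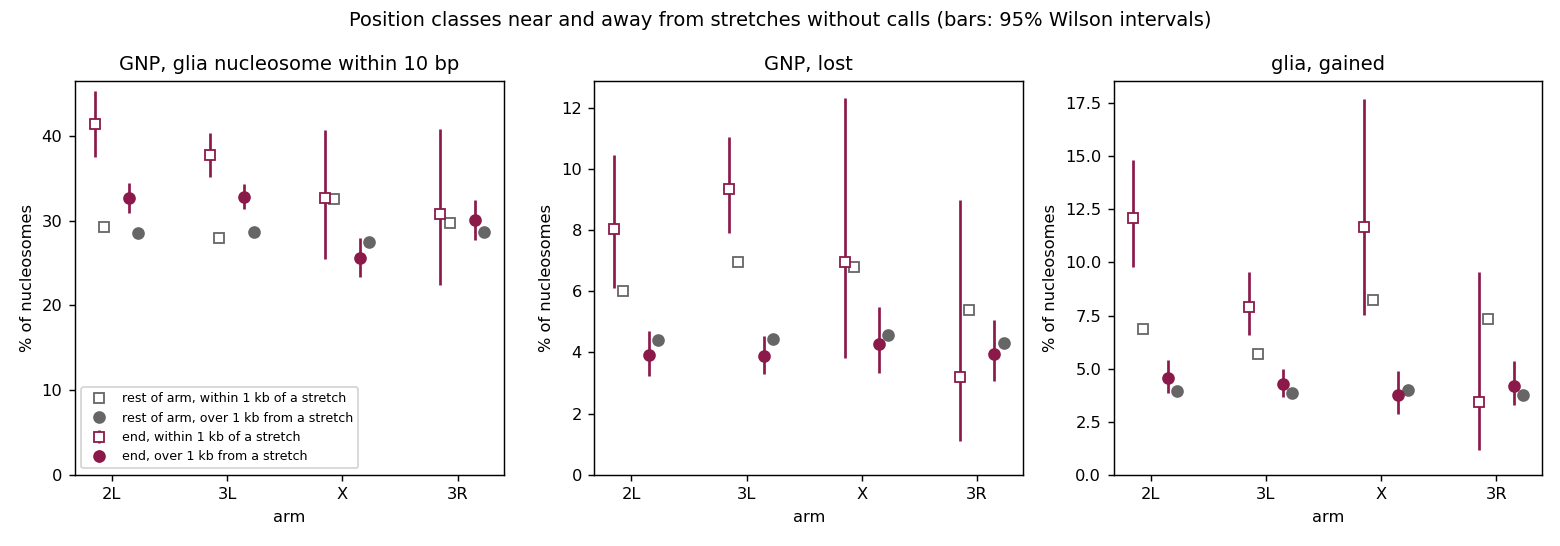
Percent of nucleosomes (y axis) with a partner within 10 bp, lost and gained, by arm (x axis), within 1 kb of an uncalled stretch (open squares) and more than 1 kb away (filled circles), for the end (purple, with 95% Wilson intervals) and the rest of the arm (grey). The surplus within 10 bp on 2L and 3L is present in both classes, whereas lost and gained shares more than 1 kb away lie near the arm. Nucleosomes inside a stretch of the other map fall mostly in the near class, which raises its lost and gained shares by construction.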

How the data were processed

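The series lists 12 samples, and the 2 MNase-seq lists were used. The other 10 are ChIP-seq libraries and were not used here. According to the methods, alignment to dm3 was done by the authors with Bowtie (0.12.7 in the submitters' processing notes), and nucleosomes were predicted from uniquely mapped reads with GeneTrack, whose settings are not given in the sources used here. The deposited lists hold chromosome, start and end in bp and no score or read count. End minus start was 146 bp throughout and neighbouring starts were at least 147 bp apart. Whether positions count from 0 or 1 is unsettled, so coordinates carry 1 bp of uncertainty. A dm3 genome or annotation was not used here, so sequences, base composition and genes were not analysed.

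Python 3.11.15, NumPy 2.4.6 and SciPy 1.17.1 gave exact Poisson intervals for counts, Wilson intervals for shares, Newcombe intervals for their differences and normal intervals for log ratios. No test was made, because each cell type has a single library. The position classes were tested on a simulated map whose nucleosomes lay much farther apart than in the data. Of the interval methods only the Newcombe interval was tried, on simulated independent counts. Regions named per end were the extreme 10 kb windows, the longest shared uncalled stretch, the longest run within 10 bp and the longest array in each map. The ends, lists and measures were chosen with earlier results of these data known. Alternatives changed the boundaries by 100 kb, the stretch length, the overlap, the gap length and the window rules. Leaving out nucleosomes within 1 or 5 kb of uncalled stretches and leaving out windows were added after seeing the data.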

Additional observations from a re-analysis of the deposited data

How the results depend on the processing

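Of 165 alternative values for 56 results, 97 stayed within the counting interval of the reported value and 68 moved outside it. The sign changed in 8, all for values whose own interval included 0. Lost and gained entered as shares, which cannot change sign, and their differences from the arm were not among these results. On 3L the difference in losses went from 0.81 points [0.21 to 1.47] to -0.57 [-1.16 to 0.11] more than 1 kb from uncalled stretches. With uncalled stretches over 1000 bp instead of 500 bp left out, the density ratios in GNP and glia were 0.910 and 0.934 on 2L, 0.8996 and 0.918 on 3L, 0.978 and 0.985 on X and 0.998 and 0.993 on 3R, beside 0.949 and 0.973, 0.957 and 0.969, 0.980 and 0.994, and 0.999 and 0.995 at 500 bp. With the boundary 100 kb nearer the centromere the GNP ratio of 2L was 0.740. Requiring no overlap gave lost shares of 2.46% on 2L, 3.32% on 3L, 2.04% on X and 1.76% on 3R, and gained shares of 4.11%, 3.24%, 2.70% and 1.95%. An overlap of up to 73 bp gave 30.4%, 32.3%, 33.2% and 30.1% lost and 31.0%, 31.5%, 33.0% and 28.0% gained. These changes follow from the looser or stricter rule. Allowing 10 bp for the same position gave 34.3%, 34.1%, 26.3% and 30.1%. Gaps of at least 200 bp made up 5.16% and 4.34% of GNP and glia distances on 2L, 5.33% and 4.99% on 3L, 3.75% and 3.56% on X and 2.83% and 2.08% on 3R. The lower fold threshold tried gave 2 of 91 windows on 2L and 1 of 149 on 3L, and no minimum number gave 2 and 5 windows. The share in the rest of the arms under these rules is not given, so no difference from the arms is read from them.

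Outside the uncalled stretches of the other map, 4.68% were gained on 2L, and 4.05% gained and 3.78% lost on 3L. This filter, and in part those by distance, leave out unmatched nucleosomes by construction. More than 1 kb from any stretch the shares were 3.91% lost and 4.58% gained on 2L and 3.88% and 4.29% on 3L, and more than 5 kb away 4.75% were gained on 2L and 3.53% lost on 3L. The difference in regular distances was -4.23 (GNP) and -1.57 (glia) points on 2L and -5.68 and -2.28 on 3L beyond 1 kb, and -2.17, -1.28, -1.97 and -0.51 beyond 5 kb. The surplus within 10 bp beyond 5 kb was 3.41 on 2L and 3.83 on 3L. The cause of these shifts was otherwise not tested. Leaving out each 100 kb window in turn gave surpluses within 10 bp of 5.14 to 7.02 points on 2L, 5.11 to 6.16 on 3L, -1.96 to -0.12 on X and 0.72 to 3.07 on 3R. Lost minus gained then ranged from -1.77 to -1.02 on 2L, from -0.14 to 0.18 on 3L, from -0.62 to 0.16 on X and from -0.46 to 0.20 on 3R. The plans for base composition and genes were not run. With 1 library per cell type and unknown depth, missing nucleosomes and missing reads cannot be told apart.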
